A study of Homo sapiens with 34 samples.

Results

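Chemokines and chemokine receptors were followed while H1, an established line of human embryonic stem cells, formed blood without added haematopoietic cytokines. The members were all rows of the expression table whose gene name is that of a CC, CXC, CX3C or XC chemokine, of a receptor for one, or of an atypical receptor of the ACKR group. The rule found 44 of 20255 genes: 25 ligands (14 CC, 10 CXC and 1 CX3C), 15 receptors (8 CC, 6 CXC and 1 CX3C) and 4 atypical receptors. Of these, 42 reached a value of 10 or more in 3 or more samples and were tested. The other 2, the CC ligands CCL7 and CCL16, did not. Chemokines that the name rule does not reach, such as PF4 and PPBP, are described with the pathway genes.

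RNA was sequenced in 34 samples from 12 populations. Undifferentiated H1 cells (1 sample, no treatment) and all cells up to day 4 were unsorted. Embryoid bodies (EBs) of day 0 carried BMP4 and VEGF in their labels, and every later population VEGF alone. By the study's methods, both factors were given from the attachment of the EBs on day 0 until the medium change on day 2, and VEGF alone from then on, with no haematopoietic cytokine. Days 0, 2 and 4 gave 1 population each, days 6, 9 and 12 gave CD43- and CD43+ cells, and day 16 gave CD43-CD45- cells and CD43+/CD45+ cells. The last pair is named CD43- and CD43+ cells of day 16 here, although its gate also used CD45. Each of these 11 populations has 3 samples, which the study prepared as independent replicates of 1 cell line. CD43 is a surface glycoprotein carried by early blood cells, and CD45 is a phosphatase of most white cells.

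Chemokines are small secreted proteins that steer cell migration, and their receptors couple to inhibitory G proteins. In the bone marrow and in blood-forming sites of the embryo, stromal and endothelial cells secrete CXCL12, and blood progenitors that carry its receptor CXCR4 are held near the source. Mature myeloid cells both make and sense inflammatory chemokines. Atypical receptors bind chemokines without the usual G protein signal, and several remove ligand from the surroundings.

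The deposited values are tag counts that the authors normalized for GC content and between samples, and rounded to whole numbers. Sorted by size, they were identical in all 34 samples (sum 17856940, median 197), so that a value is close to a rank and the depth of sequencing is unknown. Values were not divided by gene length and are compared here between samples of 1 gene, never between genes. SPN, the gene of CD43, was 18 to 328 in the CD43- samples and 2338 to 9460 in the CD43+ samples. A list of 10 mesenchymal markers summed to 159441 to 282504 over the CD43- samples of days 6 to 16 and to 3078 to 66586 over the CD43+ samples. A list of 9 endothelial markers summed to 32929 to 118427 in CD43- samples, and to 34821 to 45178 in CD43+ cells on day 6, an overlap that ended on day 9 (13191 to 16578 in CD43+ cells). The CD43- cells of day 12 were uneven. Their neutrophil marker sums were 458, 1603 and 9241 and their macrophage marker sums 435, 6385 and 8347 in samples 1, 2 and 3. Results that rest on samples 2 and 3 are given below with and without them, except where stated. The CD43- cells of day 16 had neutrophil sums of 8212, 28473 and 16589 and megakaryocyte sums of 4748, 14545 and 7371. Their macrophage sums were 1573, 2178 and 1890. The part of such cells in the day 16 CD43- values was not tested. In these bulk samples, fewer cells of a type and less RNA per cell cannot be told apart.

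Over the 12 populations, most of the chemokine system was at its highest in late CD43+ cells. By the median of 3 samples, 33 of the 42 members peaked in a CD43+ population, of which 20 did so at day 16, 8 at day 12, 4 at day 9 and 1 at day 6. Only 6 members peaked in CD43- cells. They were the ligands CXCL14, CCL2, CX3CL1 and CXCL2 and the atypical receptor ACKR3 on day 12, and CCR10 on day 16. CXCL12 peaked on day 2, and CCL26 and ACKR4 in the day 0 EBs. Taking means in place of medians left the peak population unchanged for 36 of the 42. The samples of the peak population all lay above those of the next population for 16 members, so the peak of the other members is not separated from its neighbour. Peaks were not counted over all genes, so no background share stands beside these counts. CCL8, CCL20, CCL24, CCR2, CCR3, CXCR1 and CXCR3 reached 10 only in CD43+ samples, so the filter fixed the side of their peak.

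**Figure D1:**
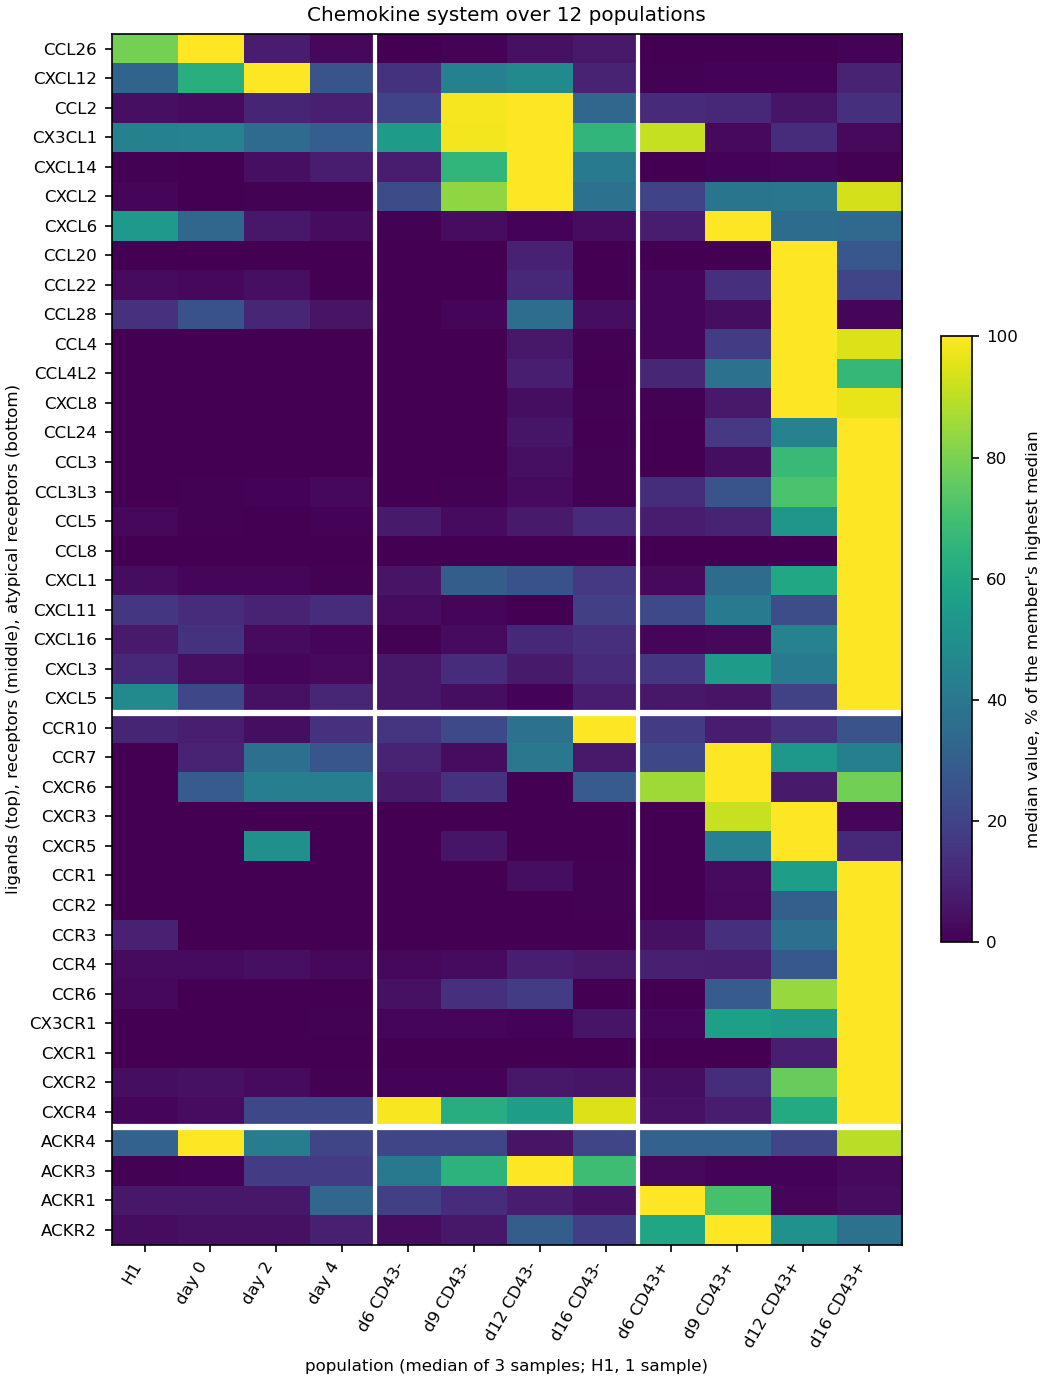
Median value of 41 members (rows) in the 12 populations (columns; 3 samples each, 1 for H1), as a percentage of each member's own highest median. Bright cells gather in the last columns, the CD43+ cells of days 12 and 16, where 27 of them peak, whereas CXCL14, CCL2, CX3CL1, CXCL2 and ACKR3 are brightest in day 12 CD43- cells.

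To ask which chemokine genes mark blood cells and which the cells around them, CD43+ and CD43- cells of the same day were compared with limma on log2(value + 1). A member was called when its Benjamini-Hochberg adjusted p over all 19815 genes tested was below 0.05 and its fold change above 4. On day 6, 8 of 42 members were higher in CD43+ cells and 4 lower, where 4.68% and 7.84% of all genes were called higher and lower. On day 9, 19 were higher and 6 lower (8.64% and 12.8% of all genes). On day 12, 24 were higher and 5 lower (11.8% and 14.4% of all genes), and on day 16, 25 were higher and 3 lower (12.2% and 13.6% of all genes). The share of members called higher thus rose from 19.0% on day 6 to 59.5% on day 16, whereas the share called lower, 7.14% to 14.3%, stayed near the background. CCL8, CCL20, CCL24, CCR2, CCR3, CXCR1 and CXCR3, each counted as higher on at least 1 day, passed the filter only through CD43+ samples. Being high there was a condition of their being tested, which limits these shares and the tests of these genes given below. The median log2 difference of the members was 0.54, 1.80, 2.72 and 2.99 on the 4 days, beside 0.14, 0.24, 0.21 and 0.14 for all genes. Leaving out members listed at 0 in all samples of a population, it was 0.74 over 32 members, 1.80 over 34, 2.56 over 38 and 2.99 over 38.

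The 2 directions were taken by separate sets of members. At least once, 31 members were called higher in CD43+ cells and 6 lower, and 0 were called in both directions. The 6 were the ligands CXCL12, CXCL14, CX3CL1 and CCL2 and the receptors CXCR4 and ACKR3. Only ACKR3 and CXCL14 were lower on all 4 days. CCL3, CCL3L3, CCL4L2, CXCL6 and CXCR2 were higher on all 4 days, and 8 members were higher on days 9, 12 and 16 but not on day 6. On no day were ACKR4, CCL26, CCL28, CCR10 and CXCL2 called. How many of all genes were called at least once, or in both directions, was not counted, so these counts have no background. Of the 94 calls, 88 held when any 1 sample was left out, and the other 6 are named where their genes are described.

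CXCL12, the homing signal for blood progenitors, was higher in the CD43- cells until day 12. Its values before sorting were 696 in H1 cells, 1112, 1360 and 1443 on day 0, 2148, 2156 and 2328 on day 2, and 568, 564 and 448 on day 4. On day 6 it was 309, 580 and 318 in CD43- cells and 10, 16 and 10 in CD43+ cells (log2 fold change -4.92, SE 0.47, adjusted p = 2.57e-09, limma). On day 9 it was 946, 526 and 1327 against 20, 8 and 62 (-5.25, SE 0.47, adjusted p = 2.57e-10, limma). On day 12 it was 1410, 369 and 1026 against 34, 16 and 24 (-5.05, SE 0.47, adjusted p = 3.74e-10, limma). The populations did not overlap on these days. On day 16 they did. CD43- cells had 207, 217 and 300 and CD43+ cells 200, 218 and 252, a log2 difference of -0.10 that was not called (adjusted p = 0.87, limma). Within CD43+ cells CXCL12 was higher on day 16 than on day 12 (log2 fold change 3.18, SE 0.47, adjusted p = 6.37e-06, limma). Mesenchymal marker sums in CD43+ cells were 17295 to 37496 on day 12 and 5968 to 13192 on day 16. Endothelial sums were 5792 to 7941 and 7828 to 11381, and megakaryocyte sums 11370 to 41880 and 25389 to 95552. The part of these cells in the level of CXCL12 was not tested.

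CXCR4, the signalling receptor for CXCL12, began on the same side as its ligand and lost the difference. It was 3838, 1492 and 444 in day 6 CD43- cells and 416, 72 and 14 in CD43+ cells (log2 fold change -4.15, SE 0.69, adjusted p = 1.44e-05, limma). In a fit of only the 2 populations, the adjusted p was 0.061, and with the replicate number as a block in that fit it was 0.0093 (limma). The 3 CD43- samples ranked as their endothelial marker sums did (118427, 87518 and 36699), and the part of endothelial cells in this spread was not tested. On day 9 CXCR4 was 998, 934 and 938 against 115, 116 and 142 (-2.94, SE 0.69, adjusted p = 5.00e-04, limma). On day 12 the values were 1724, 643 and 845 in CD43- cells and 1034, 913 and 920 in CD43+ cells, and on day 16 they were 1422, 1426 and 1570 against 1539, 1282 and 1504, with differences of -0.04 and -0.03 that were not called. How this difference changed between days 6 and 12 was itself called (4.11 on the log2 scale, SE 0.97, adjusted p = 0.0011, limma).

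ACKR3, an atypical receptor that binds and internalizes CXCL12, stayed with the CD43- cells throughout. It was 14 in H1 cells, 16, 25 and 26 on day 0, and 512, 497 and 413 on day 2. On day 6 it was 970, 1143 and 1324 in CD43- cells against 48, 58 and 88 in CD43+ cells (log2 fold change -4.16, SE 0.28, adjusted p = 4.95e-12, limma). On day 9 the values were 1832, 2747 and 1664 against 30, 26 and 63 (-5.75, adjusted p = 1.99e-15, limma), and on day 12 they were 2522, 2827 and 3490 against 24, 24 and 44 (-6.59, adjusted p = 5.59e-17, limma). On day 16 they were 1944, 1678 and 2238 against 58, 85 and 73 (-4.75, adjusted p = 4.41e-14, limma). No CD43+ sample reached a CD43- sample on any day. The difference was larger on day 12 than on day 6 (change -2.42, SE 0.40, adjusted p = 1.68e-05, limma).

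CXCL14, a chemokine of epithelia and stroma with no settled receptor, had the largest falls of all members on days 6 and 16. In CD43- cells it was 178, 426 and 150 on day 6, 1544, 570 and 2796 on day 9, 2347, 1572 and 3877 on day 12, and 980, 654 and 1308 on day 16. In CD43+ cells it was 1, 8 and 1 on day 6, 20, 20 and 82 on day 9, 28, 16 and 45 on day 12, and 16, 18 and 12 on day 16. The log2 fold changes were -6.10, -5.35, -6.42 and -5.87 (SE 0.62 each, adjusted p = 7.66e-09, 2.83e-08, 7.15e-10 and 4.11e-09, limma). The populations were apart by more than the spread between samples on each day. Within CD43- cells CXCL14 was higher on day 12 than on day 6 (3.43, SE 0.62, adjusted p = 6.33e-05, limma).

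CX3CL1, a membrane-bound chemokine of endothelium, moved to the CD43- side after day 6, while its receptor CX3CR1 went the other way. CX3CL1 was 88, 110 and 40 in day 6 CD43- cells and 106, 176 and 146 in CD43+ cells, a difference of 0.93 that was not called (adjusted p = 0.12, limma). On day 9 it was 176, 76 and 157 against 2, 4 and 6 (log2 fold change -4.77, SE 0.50, adjusted p = 3.70e-09, limma). The values were 146, 160 and 280 against 20, 20 and 16 on day 12 (-3.26, SE 0.50, adjusted p = 1.73e-06, limma) and 105, 118 and 104 against 0, 7 and 4 on day 16 (-5.005, SE 0.50, adjusted p = 1.15e-09, limma). The difference between CD43+ and CD43- cells changed between days 6 and 12 (change -4.19, SE 0.70, adjusted p = 2.13e-05, limma). CX3CR1, which marks monocytes and macrophages, was 22, 6 and 10 against 19, 6 and 10 on day 6 and was not called. It was 10, 32 and 6 in CD43- cells against 544, 463 and 387 in CD43+ cells on day 9 (5.08, SE 0.72, adjusted p = 7.93e-07, limma), 0, 8 and 14 against 734, 444 and 442 on day 12 (6.68, SE 0.72, adjusted p = 5.72e-09, limma), and 37, 48 and 47 against 770, 822 and 1097 on day 16 (4.31, SE 0.72, adjusted p = 8.00e-06, limma). From day 9 on, ligand and receptor were thus high in opposite populations.

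CCL2, which draws monocytes, and its receptor CCR2 were also on opposite sides. CCL2 was 518, 194 and 458 in day 9 CD43- cells and 28, 85 and 54 in CD43+ cells (log2 fold change -2.80, SE 0.62, adjusted p = 2.68e-04, limma). By day 12 it was 464, 360 and 557 against 83, 27 and 26 (-3.51, SE 0.62, adjusted p = 1.47e-05, limma). On day 16 the values, 182, 154 and 141 against 64, 48 and 168, overlapped and the difference of -0.97 was not called. CCR2 was at 10, 16 and 16 in day 9 CD43+ cells against 2, 0 and 0 in CD43- cells (3.35, SE 0.63, adjusted p = 4.16e-05, limma). By day 12 it was 199, 235 and 202 in CD43+ cells and listed at 0 in all 3 CD43- samples (adjusted p = 2.55e-11, limma), which include the 2 samples with raised macrophage and neutrophil markers. On day 16 it was 660, 669 and 850 against 2, 4 and 6 (7.26, SE 0.63, adjusted p = 9.35e-11, limma). CCL7, another ligand of CCR2, did not pass the filter. It was 7, 6 and 54 in day 12 CD43- cells, and no sample of another population was above 3.

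**Figure D2:**
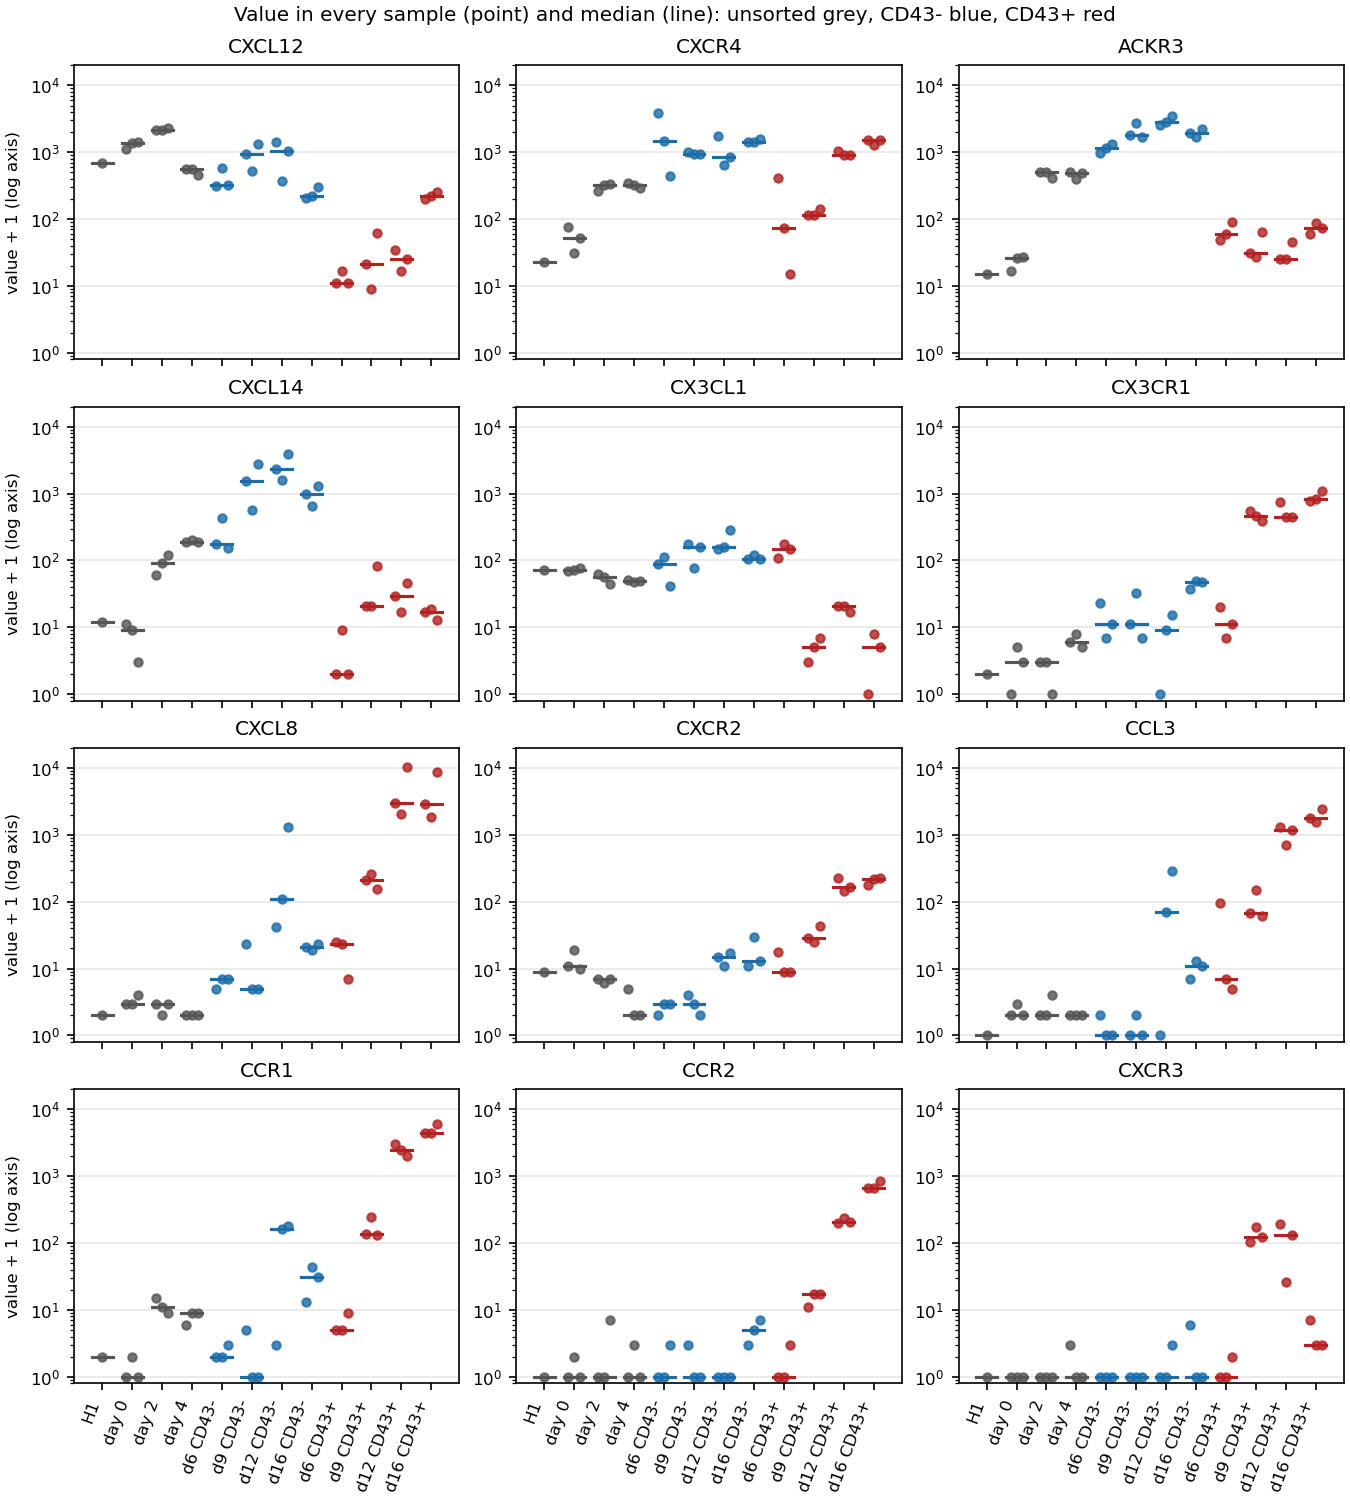
Value + 1 on a log axis in every sample (points) with the median (line) for 12 members over the 12 populations: unsorted cells grey, CD43- cells blue, CD43+ cells red. CXCL12, ACKR3, CXCL14 and, from day 9, CX3CL1 are higher in blue than in red, except CXCL12 on day 16. CX3CR1, CXCL8, CXCR2, CCL3, CCR1 and CCR2 are higher in red from day 9, and CXCR3 is high in red on days 9 and 12 only.

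CCL3 and CCL4, inflammatory chemokines of macrophages and other white cells, were called higher in CD43+ cells from day 9, and CCL3 also on day 6. CCL3 was 95, 6 and 4 in day 6 CD43+ cells and 1, 0 and 0 in CD43- cells (log2 fold change 3.57, SE 1.16, adjusted p = 0.012, limma). That call was lost without CD43+ sample 1 (2.23, adjusted p = 0.13) and in a fit of only the 2 populations (adjusted p = 0.058, limma), but not with a replicate block in that fit (adjusted p = 0.040, limma). On day 9 CCL3 was 68, 147 and 60 against 0, 1 and 0 (6.08, SE 1.16, adjusted p = 4.78e-05, limma), and on day 12 it was 1332, 704 and 1200 against 0, 70 and 290 (5.25, SE 1.16, adjusted p = 2.51e-04, limma). On day 16 it was 1772, 1572 and 2478 against 6, 12 and 10 (7.57, SE 1.16, adjusted p = 2.00e-06, limma), the largest rise of that day. CCL4 followed the same course. It was 14, 6 and 0 in day 6 CD43+ cells, where CD43- cells were listed at 0 and no call was made. The values of day 9 CD43+ cells were 76, 225 and 88, with CD43- cells again listed at 0 (adjusted p = 4.96e-06, limma). On day 12 CCL4 was 504, 460 and 702 against 0, 32 and 281 (4.70, SE 1.10, adjusted p = 4.91e-04, limma) and on day 16 it was 424, 477 and 702 against 2, 2 and 6 (7.04, SE 1.10, adjusted p = 2.94e-06, limma). In a fit of only the day 12 populations, adjusted p was 0.073 for CCL3 and 0.089 for CCL4.

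CCL3L3 and CCL4L2 are near-identical copies of CCL3 and CCL4, and how reads were split between copies is uncertain. CCL3L3 had the largest rise of any member on day 6, with 245, 52 and 28 in CD43+ cells against 6, 0 and 0 in CD43- cells (log2 fold change 5.24, SE 0.94, adjusted p = 4.10e-05, limma). CCL4L2 was 38, 32 and 10 against 0, 4 and 0 (3.82, SE 1.03, adjusted p = 0.0030, limma). On days 9, 12 and 16 the log2 fold changes were 5.12, 5.27 and 6.78 for CCL3L3 and 6.64, 4.50 and 6.39 for CCL4L2, and each was called, although CCL4L2 on day 12 had an adjusted p of 0.074 in a limma fit of only the populations compared. CCL5, a T cell and macrophage chemokine, was called later. It was 70, 40 and 146 against 71, 72 and 88 on day 6, 72, 70 and 30 against 372, 740 and 502 on day 12 (3.25, SE 0.59, adjusted p = 2.36e-05, limma), and 78, 207 and 118 against 950, 1455 and 476 on day 16 (2.80, SE 0.59, adjusted p = 1.60e-04, limma), with CD43- cells given first.

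CCR1, a receptor for CCL3 and CCL5, rose in CD43+ cells from day 9. CCR1 was 1, 1 and 2 against 4, 4 and 8 on day 6 and was not called. It was 4, 0 and 0 in CD43- cells against 136, 242 and 131 in CD43+ cells on day 9 (log2 fold change 6.58, SE 0.90, adjusted p = 4.15e-07, limma), 2, 164 and 182 against 3035, 2485 and 2018 on day 12 (5.79, SE 0.90, adjusted p = 2.51e-06, limma), and 12, 43 and 30 against 4478, 4376 and 6070 on day 16 (7.56, SE 0.90, adjusted p = 3.26e-08, limma). Within CD43+ cells its rise from day 6 to day 12, 8.67 (SE 0.90, adjusted p = 3.53e-09, limma), was the largest of all members. CCR1 overlaps CCR3 on the opposite strand, and the use of strand in counting is not stated. The sorted populations were apart in all samples on these 3 days. CCR3, the eosinophil receptor for CCL24 and CCL26, was 16, 22 and 40 in day 16 CD43+ cells and 8, 13 and 2 on day 12, and was listed at 0 in all CD43- samples of both days (adjusted p = 4.55e-10 and 2.11e-06, limma). Its ligand CCL24 was 16, 18 and 42 on day 16 and 8, 7 and 10 on day 12 in the same CD43+ samples.

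The neutrophil-attracting CXC ligands form a cluster of 6 genes on chromosome 4 (GRCh38, from CXCL8 at 73740506 to the end of CXCL2 at 74099293), and all of them signal through CXCR2, CXCL8 and CXCL6 through CXCR1 as well. The 120 bases before the RefSeq start of each (GRCh38.p14), written 5′ to 3′ on the gene's strand, are shown because the genes are neighbours and partly near-identical copies. Capitals mark matches to an NF-kB consensus on either strand, which overlap within the run shown.
CXCL8: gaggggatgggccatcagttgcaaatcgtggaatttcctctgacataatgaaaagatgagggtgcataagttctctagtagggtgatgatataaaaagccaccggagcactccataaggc
CXCL6: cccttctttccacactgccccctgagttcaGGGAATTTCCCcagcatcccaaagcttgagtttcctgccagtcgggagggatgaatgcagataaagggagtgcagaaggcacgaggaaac
CXCL1: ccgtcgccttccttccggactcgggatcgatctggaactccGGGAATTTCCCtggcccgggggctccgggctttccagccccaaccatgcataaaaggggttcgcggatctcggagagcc
CXCL5: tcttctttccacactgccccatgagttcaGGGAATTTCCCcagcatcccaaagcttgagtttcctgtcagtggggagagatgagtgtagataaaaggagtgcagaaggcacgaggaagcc
CXCL3: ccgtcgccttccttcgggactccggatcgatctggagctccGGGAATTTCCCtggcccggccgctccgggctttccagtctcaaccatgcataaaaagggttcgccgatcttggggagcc
CXCL2: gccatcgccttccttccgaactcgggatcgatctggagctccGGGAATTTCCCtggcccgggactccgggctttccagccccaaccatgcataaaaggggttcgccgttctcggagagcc
CXCL6 (chr4:73836558-73836677, plus strand) and CXCL5 (chr4:73998678-73998797, minus strand) share 110 of 119 aligned bases (92.4%, shifted by 1 base), and CXCL1 (chr4:73869273-73869392, plus strand) and CXCL3 (chr4:74038690-74038809, minus strand) share 109 of 120 (90.8%). The same run GGGAATTTCCC stands in 5 of the 6 windows. CXCL8 (chr4:73740449-73740568, plus strand) holds no exact match to the consensus in its window, and CXCL2 lies at chr4:74099196-74099315 on the minus strand. No mismatch was allowed. The CXCL8 window holds tggaatttcc, which differs from the consensus only in its first letter, so the missing match does not mean that CXCL8 lacks an NF-kB site.

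Of the 44 members, 30 had a RefSeq promoter window of 300 bases (250 before and 50 after the start). The NF-kB consensus was found in 9 of the 30, 8 of 18 ligands and 1 of 12 receptors, beside 11.3% of 35116 promoters of the same length. TTGCNNAA, a C/EBP sequence, was found in 6 of 30 (10.5% of all promoters) and TATAAA in 8 of 30 (11.5%), on either strand. These motifs were chosen after the values had been seen, and a match is a description of the letters only.

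The 6 genes were called on different sets of days, CXCL1 and CXCL3 on day 16 alone and CXCL2 on none. CXCL8 (interleukin-8) was 22, 4 and 4 in day 9 CD43- cells and 209, 262 and 153 in CD43+ cells (log2 fold change 4.62, SE 0.81, adjusted p = 1.70e-05, limma). On day 12 it was 41, 110 and 1314 against 3016, 2036 and 10442 (4.45, SE 0.81, adjusted p = 2.42e-05, limma), with the highest value of any member in CD43+ sample 3. On day 16 it was 20, 18 and 22 against 2918, 1867 and 8800 (7.44, SE 0.81, adjusted p = 6.95e-09, limma). CXCL6 was called on all 4 days and was highest on day 9, with 171, 182 and 196 against 4, 13 and 6 (4.54, SE 0.50, adjusted p = 1.03e-08, limma). CXCL6 was also at 98 in H1 cells and 60, 75 and 58 on day 0, and was lower on day 4 (6, 6 and 4; -3.37, SE 0.50, adjusted p = 2.50e-06, limma). CXCL5 was called on days 12 (5, 0 and 6 against 52, 167 and 86; 4.72, SE 0.70, adjusted p = 1.34e-06, limma) and 16 (28, 54 and 34 against 444, 883 and 190; 3.46, SE 0.70, adjusted p = 1.03e-04, limma). CXCL1 and CXCL3 were called on day 16 only, with 64, 90 and 100 against 546, 460 and 976 for CXCL1 (2.90, SE 0.65, adjusted p = 3.26e-04, limma) and 64, 176 and 120 against 1022, 1462 and 556 for CXCL3 (3.08, SE 0.48, adjusted p = 3.09e-06, limma).

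CXCL2, which shares the run above with CXCL1 and CXCL3, was called on no day between CD43+ and CD43- cells. It was 196, 385 and 165 in CD43- cells and 114, 198 and 174 in CD43+ cells on day 6, and 862, 806 and 1391 against 243, 337 and 414 on day 12 (-1.61, adjusted p = 0.017, limma), where the samples did not overlap but the fold change stayed under 4. On day 16 it was 325, 390 and 280 against 808, 1048 and 594 (1.27, adjusted p = 0.057, limma). From day 4 (4, 14 and 6) it had risen in both day 6 populations (4.85 in CD43- cells, adjusted p = 2.72e-07, and 4.30 in CD43+ cells, adjusted p = 8.66e-07, limma, against the same day 4 samples). How reads were split among CXCL1, CXCL2 and CXCL3 is uncertain.

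CXCR2 and CXCR1, the neutrophil receptors for these ligands, were on the side of the CD43+ cells. CXCR2 was 1, 2 and 2 against 17, 8 and 8 on day 6 (log2 fold change 2.11, SE 0.42, adjusted p = 1.36e-04, limma), a call that ended without CD43- sample 1 (1.92) or CD43+ sample 1 (1.78). It was 3, 2 and 1 against 28, 24 and 42 on day 9, 14, 10 and 16 against 222, 142 and 166 on day 12, and 10, 29 and 12 against 176, 216 and 229 on day 16, with CD43- cells first (3.45, 3.63 and 3.67, SE 0.42, highest adjusted p = 5.72e-08, limma). CXCR1 was at most 4 in every sample before day 12. It reached 38, 13 and 9 in day 12 CD43+ cells with CD43- cells listed at 0 (adjusted p = 8.94e-07, limma), and on day 16 it was 158, 90 and 253 against 0, 0 and 1 (6.94, SE 0.60, adjusted p = 9.32e-11, limma). CXCR1 is a close paralogue of CXCR2, so the split of reads between them is uncertain. Neutrophil marker sums in CD43+ cells were 792 to 1030 on day 6, 25839 to 33531 on day 9 and 293058 to 322202 on day 12, and the part of neutrophil precursors in these differences was not tested.

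CXCR3, CXCR5 and CCR7, receptors best known from lymphocytes, had their highest medians in CD43+ cells of days 9 and 12. CXCR3 was 102, 172 and 122 in day 9 CD43+ cells, with CD43- cells listed at 0 (adjusted p = 3.79e-10, limma). On day 12 it was 192, 25 and 133 against 0, 0 and 2 (log2 fold change 5.92, SE 0.64, adjusted p = 6.08e-09, limma). On day 16 it was 6, 2 and 2 against 5, 0 and 0 and was not called, and within CD43+ cells it fell by 4.46 from day 12 to day 16 on the log2 scale (SE 0.64, adjusted p = 4.30e-06, limma). CXCR5 was 86, 36 and 36 in day 12 CD43+ cells against 0, 1 and 0 (5.29, SE 0.66, adjusted p = 6.58e-08, limma). Its day 9 values, 16, 6 and 27 against 0, 6 and 2, overlapped, and that call was lost without CD43- sample 1 (1.70) or CD43+ sample 3 (1.98). CXCR5 was also 18, 44 and 10 on day 2. CCR7 was called on day 9 alone, with 60, 16 and 64 against 2, 3 and 2 (3.62, SE 0.54, adjusted p = 1.78e-06, limma). The 8 T and NK cell markers in the table summed to 1186 to 1280 in day 9 CD43+ cells, 3644 to 4743 on day 12 and 5914 to 7485 on day 16. NKG7 made up most of the day 16 sum (5123, 4777 and 6812), while the T cell marker CD3D was at 174, 106 and 166 on day 9, 0, 1 and 2 on day 12 and 10, 2 and 2 on day 16. The part of these cells in the values of the 3 receptors was not tested.

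CCL22, CCL20, CXCL11 and CXCL16 are ligands of CCR4, CCR6, CXCR3 and CXCR6, and all 4 had their highest medians in CD43+ cells of days 12 and 16. CCL22 was 196, 108 and 143 in day 12 CD43+ cells and 30, 16 and 14 in CD43- cells (log2 fold change 2.87, SE 0.75, adjusted p = 0.0014, limma), and 2.23 (adjusted p = 0.081) with day 12 CD43- samples 2 and 3 left out. Its receptor CCR4 was 32, 106 and 40 against 12, 10 and 12 on day 12 (2.09, SE 0.50, adjusted p = 5.92e-04, limma), a call lost without CD43+ sample 2 (1.58), and 146, 188 and 71 against 10, 16 and 10 on day 16 (3.31, SE 0.50, adjusted p = 1.71e-06, limma). CCL20 was 10, 22 and 40 against 1, 2 and 2 on day 12 (3.06, SE 0.49, adjusted p = 3.97e-06, limma). Its receptor CCR6 was 152, 26 and 38 against 5, 13 and 8 (2.58, SE 0.86, adjusted p = 0.0098, limma), and 1.83 (adjusted p = 0.083) without CD43+ sample 1. CXCL16 was 18, 68 and 62 against 632, 228 and 247 on day 12 and 74, 42 and 83 against 556, 552 and 870 on day 16, CD43- cells first (2.92 and 3.32, SE 0.52, highest adjusted p = 1.57e-05, limma). Its receptor CXCR6 was called earlier, on day 6 (2, 1 and 1 against 26, 12 and 10; 2.78, SE 0.70, adjusted p = 0.0018, limma) and on day 9 (2.20), but on neither later day. CXCL11 was 12, 12 and 4 against 64, 73 and 24 on day 16 (2.38, SE 0.54, adjusted p = 3.30e-04, limma), and 1.92 without CD43- sample 3. CCL8, a monocyte chemokine, was 32, 14 and 46 in day 16 CD43+ cells and at most 1 in every other sample (4.50, SE 0.34, adjusted p = 6.21e-12, limma). It passed the filter only through these day 16 CD43+ samples, so being high there was a condition of being tested. CXCL11, CXCL16, CCR6, CXCR5 and CXCR6 overlap other annotated genes, so their reads are uncertain.

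ACKR1 and ACKR2 were higher in CD43+ cells early and not late. ACKR1, the Duffy antigen receptor of red cells and venules, was 127, 152 and 108 in day 6 CD43+ cells against 24, 28 and 24 in CD43- cells (log2 fold change 2.29, SE 0.51, adjusted p = 4.86e-04, limma), and 90, 75 and 107 against 16, 8 and 22 on day 9 (2.58, SE 0.51, adjusted p = 7.61e-05, limma). By day 12 it was 2, 3 and 2 in CD43+ cells, a fall within CD43+ cells of 5.29 on the log2 scale from day 6 (SE 0.51, adjusted p = 8.59e-10, limma). Erythroid marker sums in CD43+ cells were 106798 to 115672 on day 6, 117466 to 198683 on day 9 and 5612 to 13917 on day 12, and their part in the fall was not tested. ACKR2, which scavenges inflammatory CC chemokines, was 54, 85 and 45 against 2, 3 and 4 on day 6 (3.94, SE 0.41, adjusted p = 1.14e-08, limma) and 91, 52 and 94 against 6, 10 and 6 on day 9 (3.25, SE 0.41, adjusted p = 1.22e-07, limma). On day 12 it was 46, 41 and 58 against 44, 27 and 24 and was not called, and in CD43- cells it was higher than on day 6 (3.01, SE 0.41, adjusted p = 1.59e-06, limma). ACKR4 was at most 28 in any sample. ACKR1, ACKR2 and ACKR4 each overlap another annotated gene.

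The remaining members were called in no CD43 comparison or were not tested. CCR10, a receptor of skin-homing lymphocytes, was 749, 734 and 680 in day 16 CD43- cells and 209, 184 and 188 in CD43+ cells, a difference of -1.89 (adjusted p = 8.70e-05, limma) that did not reach a 4-fold change, and the gene overlaps CNTNAP1. Its ligand CCL28 was 20, 36 and 20 in day 12 CD43- cells and 56, 24 and 66 in CD43+ cells and at most 20 in every sample of another population. CCL26, an eosinophil chemokine, was 68 in H1 cells, 94, 86 and 54 on day 0 and at most 10 later. CCL16 reached 16 and 14 in day 12 CD43+ samples 1 and 3 and was 0 in sample 2.

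Before sorting, from the day 0 EBs to day 4, 6 members were higher and 4 lower (7.27% and 7.07% of all genes). CXCL14 (10, 8 and 2 against 190, 204 and 186; log2 fold change 4.86, SE 0.62, adjusted p = 2.59e-07, limma), ACKR3 (502, 392 and 488 on day 4; 4.33, SE 0.28, adjusted p = 7.44e-13, limma) and CXCR4 (76, 30 and 52 against 342, 325 and 286; 2.66, SE 0.69, adjusted p = 0.0020, limma) had the largest rises. CCL26 (0, 8 and 2 on day 4; -4.68, SE 0.65, adjusted p = 1.02e-06, limma), CXCL16 (86, 70 and 82 against 8, 2 and 8; -3.68, SE 0.52, adjusted p = 1.12e-06, limma) and CXCL6 had the largest falls. BMP4 was in the medium only up to day 2, so time and treatment cannot be told apart. From day 4 to day 6 CD43+ cells, 9 members were higher and 4 lower (6.79% and 7.72%), and from day 4 to day 6 CD43- cells 4 were higher and 1 lower (4.94% and 2.77%). These comparisons share the day 4 samples. CXCL2 was among the largest rises in both, and CCL5 (8, 10 and 1 on day 4) rose by 3.74 in CD43+ cells and 3.69 in CD43- cells (SE 0.59, highest adjusted p = 1.50e-05, limma). CCL4L2 was listed at 0 in all day 4 samples and called in CD43+ cells (adjusted p = 5.13e-04, limma). CXCL1 (8, 3 and 0 on day 4, 28, 42 and 16 on day 6) rose in CD43- cells (3.07, SE 0.65, adjusted p = 4.15e-04, limma). CXCL14, CXCL12 and ACKR3 fell in CD43+ cells, with log2 fold changes of -5.88, -5.37 and -2.85 (highest adjusted p = 1.50e-08, limma). The fall called in CD43- cells was that of CCL3L3 (-2.36, adjusted p = 0.042, limma; 6, 14 and 8 against 6, 0 and 0, overlapping), which ended without any 1 of 5 of the 6 samples, with values from -2.60 to -1.89.

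Within CD43+ cells from day 6 to day 12, 24 members were higher and 3 lower (11.4% and 11.5% of all genes). After CCR1, the largest rises were CXCL8 (24, 22 and 6 on day 6; log2 fold change 7.98, SE 0.81, adjusted p = 2.46e-09, limma) and CCR2 (0, 0 and 2 on day 6; 7.20, SE 0.63, adjusted p = 1.41e-10, limma). The falls were those of ACKR1, CX3CL1 (-2.85, SE 0.50, adjusted p = 1.59e-05, limma) and CXCR6 (-2.58, SE 0.70, adjusted p = 0.0023, limma), the last lost without day 12 CD43+ sample 2 (-1.89). From day 12 to day 16, 5 were higher and 5 lower (3.79% and 5.26%). CCL8 was listed at 0 on day 12 and called on day 16 (adjusted p = 2.84e-11, limma), where only those day 16 samples brought it past the filter. CXCL12 and CXCR1 (3.13, SE 0.60, adjusted p = 1.60e-04, limma) had the next largest rises. CXCR3, CCL28 (-4.07, SE 0.51, adjusted p = 5.98e-07, limma) and CXCR5 (-3.79, SE 0.66, adjusted p = 4.72e-05, limma) had the largest falls. The day 16 gate also used CD45, so day and gate cannot be told apart.

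Within CD43- cells from day 6 to day 12, 15 members were higher and 1 lower (6.61% and 4.80% of all genes), and from day 12 to day 16, 5 were higher and 5 lower (4.46% and 5.98%). The largest rises to day 12 were CXCL8 (log2 fold change 4.87, SE 0.81, adjusted p = 2.18e-05, limma), CCL3 (4.44, SE 1.16, adjusted p = 0.0025, limma) and CCL4, listed at 0 on day 6 (adjusted p = 0.0018, limma). CXCL5 fell (-3.07, SE 0.70, adjusted p = 8.05e-04, limma). CCL3, CCL4 and CCL4L2 were all at 0 in day 12 sample 1, were 70, 32 and 25 in sample 2 and were 290, 281 and 146 in sample 3, and CXCL8 and CCR1 were likewise lowest in sample 1. Blood marker sums were 1940, 4866 and 7220 in these day 12 samples. Their neutrophil and macrophage sums given above were in the same order, with 3 of the 12 macrophage markers at 0 in sample 1. With samples 2 and 3 left out, which leaves 1 sample of day 12 that is assumed to vary like the other populations, 8 members were called from day 6 to day 12 in place of 16, CCL3 was at -0.33 and CCR1 at 0.39. CXCL8, CCL28 (3.86), CXCL14, CCL22, ACKR2, CXCR2 and CCR7 kept a called rise without them, and CXCL5 was at -2.28 (adjusted p = 0.056). From day 12 to day 16, CXCL5 (3.46, SE 0.70, adjusted p = 2.65e-04, limma), CX3CR1 (3.12, SE 0.72, adjusted p = 9.71e-04, limma) and CXCL11 (2.91, SE 0.54, adjusted p = 8.78e-05, limma) rose most, the second at 1.94 without day 12 sample 1. The part of the neutrophil and megakaryocyte markers of the day 16 samples in these rises was not tested. CCL22 (-3.98, SE 0.75, adjusted p = 1.12e-04, limma), CCL28 (-3.61, SE 0.51, adjusted p = 3.02e-06, limma) and CXCL8 (-3.13, SE 0.81, adjusted p = 0.0027, limma) fell most, the last at -1.71 without day 12 sample 3 and at -1.004 without samples 2 and 3. In the comparison of CD43+ with CD43- cells on day 12, with the same 1 sample left, 40 of the 42 members stayed on the same side of the thresholds, CCL22 was lost and CXCL3 gained (2.28).

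**Figure D3:**
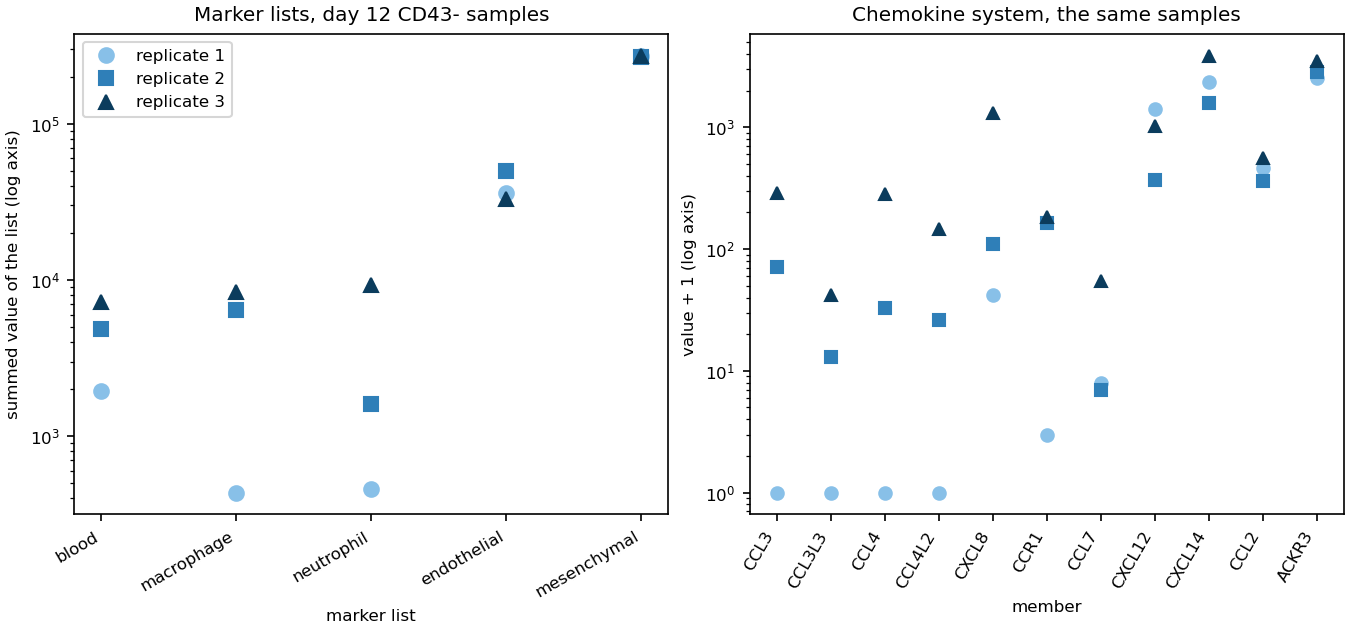
The 3 samples of day 12 CD43- cells: summed value of 5 marker lists (left) and value + 1 of 11 members (right), both on log axes, with 1 symbol per sample. Sample 1 is lowest for the blood, macrophage and neutrophil lists and at 0 for CCL3, CCL3L3, CCL4 and CCL4L2, while CXCL14, CCL2 and ACKR3 are above 300 in all 3 samples.

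Genes that work with these receptors were counted in 4 lists. Their counts stand beside 4.68%, 8.64%, 11.8% and 12.2% of all genes tested that were higher on days 6, 9, 12 and 16 and 7.84%, 12.8%, 14.4% and 13.6% that were lower, and the median log2 fold change of all genes was 0.14, 0.24, 0.21 and 0.14. Of 27 genes of receptor signalling, 9, 12, 13 and 10 were higher in CD43+ cells on days 6, 9, 12 and 16 and 0, 2, 1 and 1 were lower (list medians 1.25, 1.54, 1.75 and 1.70). WAS, an actin regulator of blood cells, rose by 4.74 on day 6 (SE 0.63, adjusted p = 5.63e-07, limma) and by 6.77 on day 9 (SE 0.63, adjusted p = 4.47e-10, limma). GNAI1, an inhibitory G protein subunit, was lower on day 12 (-2.44, SE 0.17, adjusted p = 1.07e-12, limma). Of 17 genes that switch receptors off, 2, 3, 7 and 7 were higher and 5, 3, 4 and 3 lower (medians 0.34, 0.82, 1.30 and 1.53). Among them RGS18 of platelets and myeloid cells was higher on all 4 days (8.85 on day 9, SE 0.55, adjusted p = 2.20e-13, limma) and RGS4 lower on all 4 (-9.23 on day 16, SE 0.62, adjusted p = 6.21e-13, limma). Of 20 genes of NF-kB activation and feedback, 1, 2, 4 and 6 were higher and 1, 2, 1 and 0 lower (medians -0.14, -0.09, 0.25 and 1.08). IL1B was the largest rise on each day (4.36, 5.99, 5.24 and 6.92), and TNF, at 326, 453 and 292 in day 16 CD43+ cells, was higher on that day (5.16, SE 0.66, adjusted p = 1.13e-07, limma).

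Of 16 chemokine-related genes outside the name rule, 2, 4, 8 and 8 were higher in CD43+ cells on the 4 days and 2 were lower on each (medians 0.25, 0.60, 1.83 and 1.79). PF4, the platelet chemokine, was 138, 120 and 108 in day 6 CD43+ cells against 2, 2 and 1 (log2 fold change 5.55, SE 0.90, adjusted p = 1.10e-05, limma) and 6818, 5906 and 7330 on day 9 against 10, 17 and 10 (9.005, SE 0.90, adjusted p = 1.84e-09, limma). PPBP, a platelet ligand of CXCR2, was higher on day 12 (7.85, SE 1.08, adjusted p = 3.76e-07, limma). CCRL2, an atypical receptor, was higher on day 6 (4.11, SE 0.37, adjusted p = 7.90e-10, limma). DPP4, a protease that trims CXCL12 and other chemokines, was lower in CD43+ cells on every day. It was 1510, 2172 and 2038 against 94, 64 and 116 on day 16 (-4.39, SE 0.52, adjusted p = 2.72e-08, limma). RARRES2, the ligand of CMKLR1, was lower on every day too (-5.75 on day 16, SE 0.60, adjusted p = 3.52e-09, limma), while CMKLR1 itself was higher on day 16 (3.81, SE 0.37, adjusted p = 8.71e-10, limma).

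Of 17 textbook pairings of ligands with receptors, 11 had both sides tested and at least 1 call. Ligand and receptor were both called higher in CD43+ cells for CCL3 with CCR1 on days 9, 12 and 16 and for CCL5 with CCR1 on days 12 and 16. CXCL6 and CXCR2 were both called on all 4 days, and CXCL8 was called beside them on days 9, 12 and 16. CXCR1 and CXCL5 joined on days 12 and 16 and CXCL1 and CXCL3 on day 16, while CXCL2 was called on none. Both sides were also called higher on days 12 and 16 for CCL24 with CCR3, CCL22 with CCR4 and CCL20 with CCR6, and on days 9 and 12 for CXCL11 with CXCR3. Opposite directions were called for CX3CL1 with CX3CR1 on days 9, 12 and 16 and for CCL2 with CCR2 on days 9 and 12. CXCL12 and ACKR3 were lower in CD43+ cells together on days 6, 9 and 12. CXCL16 and CXCR6 were called on different days.

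By position, 26 members lie in 7 clusters in which each is within 500 kb of the next. The cluster on chromosome 17 that runs from CCL5 to CCL4L2 (GRCh38, 35871491 to 36212878) had 3, 4, 5 and 5 of its 5 tested members higher in CD43+ cells on the 4 days. Of all genes, 4.68%, 8.64%, 11.8% and 12.2% were higher. Apart from CCL5, these members are CCL3, CCL4 and their copies, among which the split of reads is uncertain. All day 6 calls were among them. On chromosome 16, CCL22 (57358772 to 57366190) and CX3CL1 (57372458 to 57385048) are neighbours, and CCL22 was higher and CX3CL1 lower in CD43+ cells on days 9, 12 and 16. Neighbouring members thus did not always share a direction.

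Whether the CD43 difference changed between days 6 and 12 was tested as an interaction, which was called for 21 of the 42 members, 17 upward and 4 downward (8.43% and 9.99% of all genes). Upward were 10 receptors and 7 ligands, and downward were CX3CL1, ACKR1, ACKR2 and ACKR3. The largest upward change without a population at 0 was that of CX3CR1 (6.75 on the log2 scale, SE 1.02, adjusted p = 5.61e-06, limma), and CXCL5 was at 4.98 (SE 0.997, adjusted p = 1.93e-04, limma). CCL3, CCL4 and their copies were not called in this test (0.03 to 2.46, lowest adjusted p = 0.21, limma). That result depends on the uneven day 12 CD43- samples 1, 2 and 3. In these, CCL3 was 0, 70 and 290, CCL4 0, 32 and 281, CCL3L3 0, 12 and 41, and CCL4L2 0, 25 and 146. The test of these genes without samples 2 and 3 is not given, so no lack of change is concluded.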

How the data were processed

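The deposited table holds GC-normalized tag counts for 34 samples, treated here as a score because they are neither raw counts nor CPM. For these scores, the authors used bowtie2 with RSEM on Ensembl genes, then EDASeq for GC content and for differences between samples. The submitters' processing notes also name STAR 2.7 and hg38. The study names 2 sequencing companies, and which sample went to which is not given in the sources used here. Here log2(value + 1) was fitted for 33 samples in R 4.3.3 by limma 3.58.1, with a trend of the variances over mean level and no replicate block, over the 19815 genes that reached 10 in 3 or more samples, and figures and counts were made with Python. The undifferentiated sample has no replicate and was described only. Fold changes understate low genes. Depth being unknown, no counting error was computed. On data simulated for the day 12 comparison, 200 of 200 changed genes among 19815 were recovered, with 2 unchanged genes called. The changed genes were drawn from those at higher mean levels and were given changes above the fold threshold. Their recovery therefore says little about members with low values or changes near the threshold. The members, lists, comparisons and thresholds were chosen with earlier results of these data known. By the rule for naming, the 6 largest rises and falls of each CD43 comparison and the 3 largest of each other comparison have full statistics, and further members were added by role. RGS5, a symbol shared by a pair of Ensembl genes, was left out of its list. Some results on single genes are not reported here. Grouping by an amino acid motif was not run. For each replicate number, departures from the group mean were correlated between the sorted cells of a day, across genes that are not independent. On day 6, r was 0.11 to 0.20, and on day 12 it was 0.040 to 0.11. It was 0.016 to 0.079 on day 9 and -0.016 to 0.041 on day 16. Replicate 2 had nearly the same r on days 6 and 12 (0.110 and 0.108), so pairing on day 6 alone is not concluded. The alternatives were other pseudocounts, filters, scaling, variances, fold thresholds and samples, and a replicate block.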

Additional observations from a re-analysis of the deposited data

Results flagged for a closer look

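The CD43 difference (CD43+ minus CD43- cells, log2) differed between day 12 and day 6 by the interaction test in limma for 21 members, of which 20 are given, and each value below is the difference on day 12 minus that on day 6. It was lower on day 12 for CX3CL1 (-4.19), ACKR1 (-3.86), ACKR2 (-3.31) and ACKR3 (-2.42). It was higher on day 12 for the ligands CXCL6 (2.05), CXCL16 (2.17), CXCL8 (3.11), CCL5 (3.21) and CXCL5 (4.98), and for the receptors CXCR4 (4.11), CCR1 (4.38) and CX3CR1 (6.75). For the other 8, CCR3 (2.19), CCL20 (2.53), CCL24 (2.54), CXCR1 (3.47), CCR6 (4.04), CXCR5 (5.29), CXCR3 (5.59) and CCR2 (7.73), at least 1 of the 4 populations was listed at 0 in all samples, so that the size depends on the pseudocount and is no bound.

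In a limma fit of only the 4 populations compared, the calls of CCR1 (adjusted p = 0.072), CXCL6 (0.13), CXCL16 (0.077) and CXCL8 (0.14) ended. With a replicate block in that fit the adjusted p was 0.067, 0.12, 0.11 and 0.14 in the same order, and the call of CCR3 ended as well (0.052).

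With 1 sample left out, the calls of CXCL6, CXCL16, CXCL8 and CCR3 ended. The value of CXCL6 was then 1.61 without day 6 CD43- sample 2, 1.25 without day 12 CD43- sample 1 and 1.89 without day 12 CD43+ sample 2. That of CXCL16 was 1.95 without day 6 CD43- sample 2, 1.76 without day 6 CD43+ sample 2, 1.57 without day 12 CD43- sample 1 and 1.70 without day 12 CD43+ sample 1. That of CXCL8 lay between 2.04, without day 12 CD43- sample 1, and 3.02, without day 6 CD43- sample 2, and the call also ended without day 6 CD43+ sample 3 (2.51), day 12 CD43- sample 2 (2.74) or day 12 CD43+ sample 3 (2.41). That of CCR3 was 1.85 without day 6 CD43+ sample 2 and 1.71 without day 12 CD43+ sample 2.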

How the results depend on the processing

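Of the 168 results of single members in the CD43 comparisons, all kept their call without a filter, with robust variances and with a replicate block, and 167 did with median-of-ratios scaling (factors 0.906 to 1.129). A pseudocount of 10 ended 26 calls, a pseudocount of 0.1 ended 3 and added 8, fitting only the populations compared ended 5, doing so with a replicate block ended 6, and a fold change above 2 added 20. Sign changes of members called under neither setting were not counted as reversals.

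With a pseudocount of 10, the members called were 6 on day 6 between CD43+ and CD43- cells, 6 between day 4 and day 0, 7 and 3 from day 4 to day 6 CD43+ and CD43- cells, 6 within CD43+ cells from day 12 to 16, and 7 and 1 within CD43- cells from day 6 to 12 and from day 12 to 16. With a fold change above 2 there were 20 and 11 from day 4 to day 6 CD43+ and CD43- cells and 20 within CD43+ cells from day 12 to 16. With only genes that reached 100, there were 5 and 6 from day 12 to 16 within CD43+ and CD43- cells. With only the populations compared there were 3 from day 4 to day 6 CD43- cells, and with a replicate block added there were 2, then 5 within CD43+ cells and 5 within CD43- cells from day 12 to 16, and 0 within CD43- cells from day 6 to 12 in limma, where 18 members had an unadjusted p under 0.05 and 382 of all genes were called. These fits have fewer samples.

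With day 12 CD43- samples 2 and 3 left out, an alternative chosen after seeing the data in which the lone sample is assumed to vary like the other populations, 8 members were called from day 6 to 12. CCL3 was then at -0.33, CCL4 at 0.00 and CCL4L2 at -0.77, and CCL4L2 was at 1.39 from day 12 to 16. Leaving out 1 sample gave 10 to 15, 24 to 27, 28 to 30 and 28 to 29 members called between CD43+ and CD43- cells on days 6, 9, 12 and 16. Depth is unknown, so low values carry no counting error.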
